A study of Mus musculus with 6 samples.

Results

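The 10 genes described here encode transcription factors of cerebellar neurons: Etv1, Zic1, Zic2, Neurod1, Neurod2, Pax6, En2, Rora, Foxp2 and Eomes. They were chosen by symbol, with earlier results of these data known. All 10 symbols were found among the 56748 genes of the count table and passed the filter on low counts. RNA was sequenced from the cerebellum of 6 adult C57BL/6J mice, 90 to 120 days old. The MeHg group held 3 offspring of dams that drank water with 0.2 ppm methylmercury, a neurotoxic organic mercury compound, from the start of pregnancy to birth. The Control group held 3 offspring of dams given 0 ppm over the same period. By the labels each group had 2 females and 1 male. The offspring themselves had no stated exposure after birth. No label gives dam or litter, so the p-values measure only the spread between these 6 samples.

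The cerebellar cortex is built mainly from granule cells, small and very numerous excitatory neurons, and from Purkinje cells, the large inhibitory neurons that carry its output. Unipolar brush cells are a less common excitatory type that is concentrated in the vestibular lobules. Each type is made and then maintained under its own transcription factors, proteins that bind DNA and set which genes are read. Etv1, Zic1, Zic2, Neurod1, Neurod2, Pax6 and En2 are made in the granule cell lineage, although not by it alone. Rora and Foxp2 are Purkinje cell genes, Rora also in interneurons of the molecular layer, and Eomes marks unipolar brush cells.

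Total counts were 14487022 to 15975367 in the MeHg libraries and 14116088 to 20303833 in the Control libraries. Levels are given as CPM, counts scaled to the size of each library. The cerebellar markers Gabra6 (435 to 797 CPM) and Pcp2 (202 to 317 CPM) were present in all 6 libraries. Control replicate 2, labelled female, had 0.249 CPM of Xist and 87.2 CPM of the Y-linked Ddx3y, as in the libraries labelled male. By this RNA the sexes were not balanced between the groups. The summed level of 8 choroid plexus markers was 1624 to 6934 CPM in MeHg and 26.2 to 1957 CPM in Control. The summed level of 9 brainstem and midbrain markers was 64.8 to 276 CPM in MeHg and 31.5 to 72.2 CPM in Control. Of these 9, 5 passed the filter on low counts. Of the highest sum, in MeHg replicate 2, 103 CPM was the glutamate transporter Slc17a6 and 67.5 CPM was Tph2, the serotonin synthesis enzyme. In MeHg replicates 1 and 3, Slc17a6 was at 49.9 and 48.4 CPM and Tph2 at 0.56 and 1.48 CPM. None of these 17 markers was at 0 in all libraries. The sum of 6 ependymal markers was 40.0 to 63.8 CPM in MeHg and 16.5 to 24.5 CPM in Control, and 3 of the 6 (Cfap52, Foxj1 and Rsph1) rose by the test described below. The sum of 6 oligodendrocyte markers was 5764 to 7863 CPM in MeHg and 5123 to 5844 CPM in Control. Their part in the results below was not tested, other than by leaving each library out.

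Promoter sequence from RefSeq (build GRCm38.p6) matched 7 of the 10 genes, in 9 windows that run from 250 bases before a start site to 50 after it. Shown are Etv1, which had the largest change among the factors that passed the test and has a pair of start sites that a gene count cannot tell apart, Zic1, the most abundant factor, and Neurod2, which did not pass. Capitals mark E-boxes (CANNTG, searched on both strands), the short motif bound by basic helix-loop-helix factors such as Neurod1 and Neurod2.
Etv1, upstream start, chr12:38779832-38780131, plus strand: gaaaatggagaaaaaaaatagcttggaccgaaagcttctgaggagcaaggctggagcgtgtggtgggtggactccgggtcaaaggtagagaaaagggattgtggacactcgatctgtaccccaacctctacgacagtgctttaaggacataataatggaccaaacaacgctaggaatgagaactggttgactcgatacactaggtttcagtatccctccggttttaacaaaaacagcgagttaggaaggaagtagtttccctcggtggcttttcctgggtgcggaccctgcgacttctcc
Etv1, downstream start, chr12:38783461-38783760, plus strand: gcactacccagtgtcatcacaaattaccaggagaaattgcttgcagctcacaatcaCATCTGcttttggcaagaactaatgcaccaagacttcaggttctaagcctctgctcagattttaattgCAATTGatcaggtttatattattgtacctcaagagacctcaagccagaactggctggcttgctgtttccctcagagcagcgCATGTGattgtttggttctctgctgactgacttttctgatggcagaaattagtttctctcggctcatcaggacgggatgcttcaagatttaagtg
Zic1, chr9:91365719-91366018, minus strand: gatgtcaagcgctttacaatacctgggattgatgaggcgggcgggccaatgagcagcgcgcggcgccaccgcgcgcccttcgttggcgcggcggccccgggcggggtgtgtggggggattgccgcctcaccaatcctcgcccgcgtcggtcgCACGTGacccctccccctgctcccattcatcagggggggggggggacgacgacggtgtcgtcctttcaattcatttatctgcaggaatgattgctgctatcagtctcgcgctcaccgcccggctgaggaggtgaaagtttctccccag
Neurod2, chr11:98329596-98329895, minus strand: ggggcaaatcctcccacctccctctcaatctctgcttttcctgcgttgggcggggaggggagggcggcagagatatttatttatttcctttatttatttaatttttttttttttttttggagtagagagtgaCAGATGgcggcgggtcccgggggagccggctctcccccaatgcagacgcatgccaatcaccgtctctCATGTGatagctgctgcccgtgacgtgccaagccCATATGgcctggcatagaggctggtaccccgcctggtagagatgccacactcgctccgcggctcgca
The downstream Etv1 window and the Neurod2 window held 3 E-boxes each, 1 of them CAGATG on either strand, and the upstream Etv1 window held 0. E-boxes were found in 5 of the 9 windows, against 72.3% of all 32851 promoter windows of this length, and CAGATG, which is also an E-box, in 17.2% of all windows. The ROR site core AGGTCA (16.3% of all windows), the ETS core CCGGAA (14.9%), the Zic motif CAGCAGG (10.5%) and the homeodomain motif TAATTA (5.29%) were found in 0 of the 9 windows. A match is a run of letters and no measurement of binding.

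Of the 10 factors, 5 fell in MeHg cerebellum: Etv1, Pax6, En2, Zic1 and Rora, by 19.6% to 28.4%. None rose. Zic2, Neurod1, Neurod2 and Eomes had negative log2 fold changes and Foxp2 a positive one, and these 5 did not pass. The test was edgeR's quasi-likelihood test over all 16859 tested genes, with a call at a Benjamini-Hochberg adjusted p under 0.05. It called 2.36% of all tested genes, 1.79% lower and 0.575% higher (301 and 97 genes, against 119 and 78 with upper-quartile scaling). Among the 1066 tested genes to which the authors' deposited table assigns a transcription factor family, 3.38% were called, 2.81% lower and 0.563% higher. The median log2 fold change was -0.38 over the 10 factors, -0.07 over all transcription factor genes and 0.01 over all tested genes. In 8 of the 10 every MeHg library lay below every Control library, in Foxp2 every MeHg library lay above, and in Eomes the groups overlapped. Groups that did not overlap made up 29.4% of all tested genes, 15.5% with MeHg lower and 13.9% with MeHg higher. Among transcription factor genes the share was 31.7%, 22.0% with MeHg lower and 9.76% with MeHg higher. The calls were close to the threshold, since the smallest adjusted p of any gene was 0.0431. Because the 10 factors were chosen with earlier results of these data known, their contrast with all genes is no independent support.

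**Figure D1:**
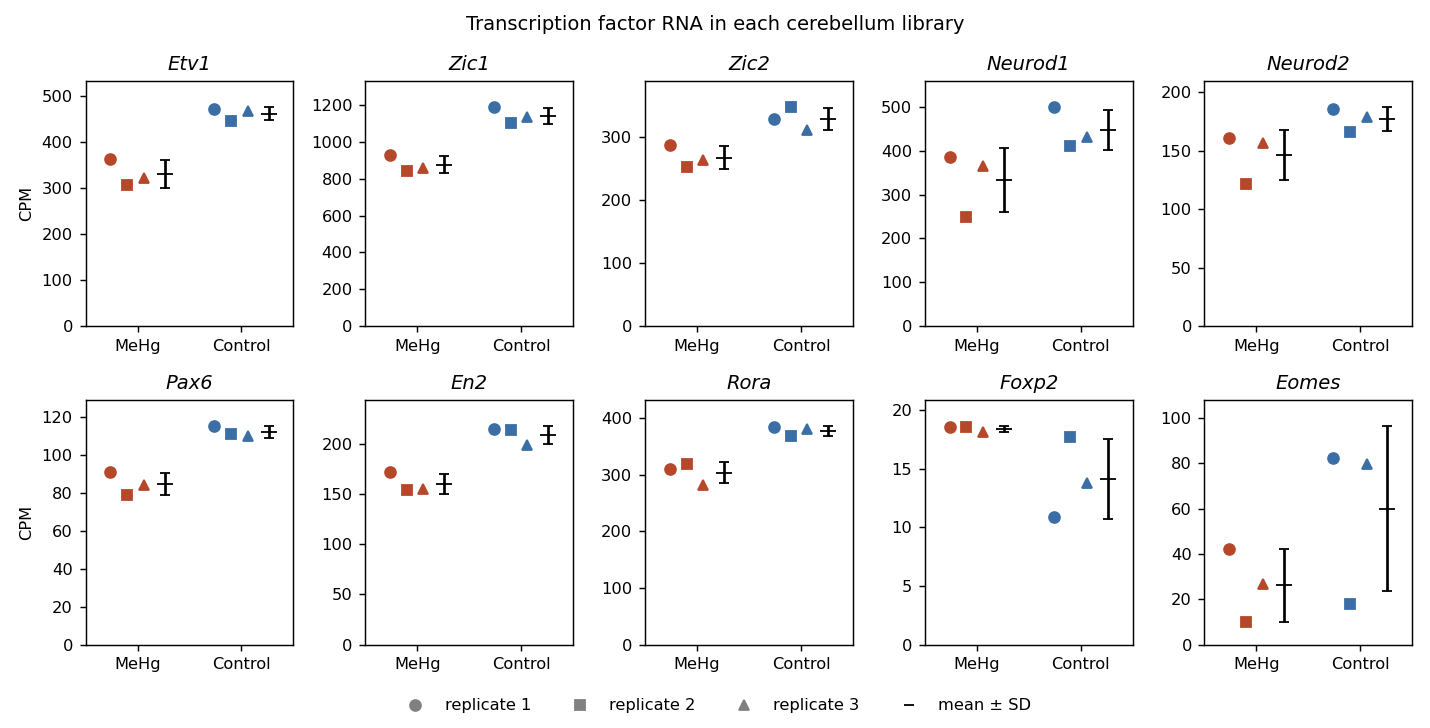
Level of each factor (CPM, axis from 0) in the 3 MeHg and the 3 Control libraries, with symbols for the replicate number and the mean ± SD beside each group. The groups are apart for every factor except Eomes, where Control replicate 2 (17.9 CPM) lies below MeHg replicates 1 and 3.

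The calls moved with the libraries used. Without Control replicate 2, whose sex label does not match its RNA, Etv1 was the only factor called, where 1.29% of all genes were. Without MeHg replicate 2, with the highest brainstem markers, the same 5 were called, where 6.33% of all genes were. No factor was called without Control replicate 1, Control replicate 3, MeHg replicate 1 or MeHg replicate 3. In those fits edgeR called 0 to 2 genes in all. An unadjusted p under 0.05 was seen there for 6 to 9 of the factors, and for 2572 to 4003 of the 17081 to 17308 genes tested. Per-library offsets that remove a trend with gene length, or with length and GC content, also left 0 of the 10 called. With either offset 9 of them had an unadjusted p under 0.05, as did 3583 of 16859 and 3533 of 16800 tested genes. No fold change of the 10 changed sign in any of the 19 other fits.

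Etv1, an ETS-family factor that drives maturation of granule cells in the mouse, was at 363, 305 and 321 CPM in MeHg replicates 1 to 3, against 470, 444 and 467 CPM in Control replicates 1 to 3. All MeHg values lay well below all Control values. The log2 fold change was -0.48 ± 0.08 (SE, adjusted p = 0.0431), so Etv1 fell by 28.4%. Its gene (ENSMUSG00000004151) spans chr12:38829379-38920483 in mm39, on the plus strand, with 13296 bases of exon. With the length offset its log2 fold change was -0.33 (adjusted p = 0.0935). Of the 2 listed genes that depend on Etv1 in maturing mouse granule cells, Tiam1, an activator of the GTPase Rac, fell (272.6, 243.7 and 244.4 CPM in MeHg against 357.7, 326.8 and 330.7 CPM in Control, -0.42 ± 0.07, adjusted p = 0.0431). The other, the NMDA receptor subunit Grin2c, had -0.32 ± 0.08 (adjusted p = 0.0560).

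Zic1 and Zic2 encode zinc finger factors that are made by granule cell precursors and stay on in mature granule cells. In humans, loss of ZIC1 together with its neighbour ZIC4 is linked to the Dandy-Walker malformation of the cerebellum. Zic1 (chr9:91240111-91247863, minus strand, ENSMUSG00000032368) was at 930, 841 and 858 CPM in MeHg, against 1188, 1104 and 1134 CPM in Control. It fell by 23.3% (log2 fold change -0.38 ± 0.07, adjusted p = 0.0433). Zic2 (chr14:122712847-122717264, plus strand, ENSMUSG00000061524) was at 287, 252 and 263 CPM in MeHg, against 328, 347 and 311 CPM in Control. The groups were apart here too, with a log2 fold change of -0.30 ± 0.07 (adjusted p = 0.0617). Within each library, the log2 ratio of Zic2 to Zic1 was -1.70, -1.74 and -1.71 in MeHg and -1.86, -1.67 and -1.87 in Control, a difference of 0.08 ± 0.07 (SE). The ratios overlapped (two-sided exact permutation p = 0.4), so the data did not separate the responses of the pair. Exons of Zic1 and Zic4 share 172 bases on opposite strands, and 1239 exon bases of Zic2 are shared with an opposite-strand non-coding gene. How strand was counted is not given in the sources used here, so reads in those stretches cannot be assigned with certainty.

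Pax6 and En2 pattern the early cerebellum. Pax6, a paired-box factor of the rhombic lip and of granule cells, was at 91.0, 79.2 and 84.5 CPM in MeHg, against 115.5, 111.3 and 109.9 CPM in Control. Here too the groups were far apart, and the log2 fold change was -0.40 ± 0.07 (adjusted p = 0.0431). Its gene (chr2:105499245-105527709, plus strand, ENSMUSG00000027168) shares 3393 exon bases with Elp4 on the opposite strand in the GENCODE annotation, and with the length offset its log2 fold change was -0.27 (adjusted p = 0.106). En2, a homeobox factor needed for normal folding of the mouse cerebellum, was at 171.8, 154.2 and 155.5 CPM in MeHg, against 214.8, 214.5 and 199.3 CPM in Control. It fell by 23.4% (log2 fold change -0.38 ± 0.07, adjusted p = 0.0431), with 3539 bases of exon, at chr5:28370692-28377164 on the plus strand (ENSMUSG00000039095). With the length offset its log2 fold change was -0.42 (adjusted p = 0.0725).

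Neurod1 and Neurod2, basic helix-loop-helix factors that support the differentiation and survival of granule cells in the mouse, had lower values in MeHg but wider spread. Neurod1 (chr2:79282865-79287095, minus strand, ENSMUSG00000034701) was at 385, 250 and 365 CPM in MeHg, against 499, 411 and 432 CPM in Control. Neurod2 (chr11:98216241-98220474, minus strand, ENSMUSG00000038255) was at 160.4, 121.6 and 156.9 CPM in MeHg, against 186.0, 165.7 and 178.7 CPM in Control. For both genes MeHg replicate 2 was by far the lowest library, while MeHg replicates 1 and 3 came close to the lowest Control library. The log2 fold changes were -0.43 ± 0.15 for Neurod1 (adjusted p = 0.134) and -0.27 ± 0.10 for Neurod2 (adjusted p = 0.153). Without MeHg replicate 2 they were -0.25 and -0.15. The log2 ratio of Neurod2 to Neurod1 was -1.26, -1.04 and -1.22 in MeHg and -1.42, -1.31 and -1.27 in Control. All 3 MeHg ratios were above all Control ratios, by 0.16 ± 0.08 on average (p = 0.1 by a two-sided exact permutation test, and 3 samples against 3 can give no smaller p). Without MeHg replicate 2 the difference was 0.096.

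In a list of 10 granule cell markers, set beside these 7 factors, 3 fell and 7 did not pass. All 10 had negative log2 fold changes (median -0.32), and Fat2 (-0.53 ± 0.08), Gabra6 (-0.58 ± 0.10) and Gabrd (-0.41 ± 0.08) passed the test. The summed level of the 10 was 4799 to 5497 CPM in MeHg and 6311 to 6760 CPM in Control, and that of the 7 factors was 2003 to 2388 CPM in MeHg and 2798 to 3002 CPM in Control. The marker list was part of an earlier result on these data and is no independent support. It also holds Grin2c, named above with Etv1. In bulk tissue, fewer granule cells and less RNA per granule cell cannot be told apart.

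Each factor was also set against the mean log2 level of the granule markers in its own library, a ratio that library scaling cannot move. The ratio cannot tell fewer cells from less RNA per cell, since a fall shared with the markers would leave it unchanged. For Etv1 this log2 ratio was -0.40, -0.44 and -0.47 in MeHg, against -0.32, -0.29 and -0.25 in Control. All MeHg ratios were lower, by 0.15 on average (difference -0.15 ± 0.03 SE). This permutation test too gave its lowest possible p of 0.1, or 0.26 after Benjamini-Hochberg adjustment over the 13 ratios computed. Adjusted in this way, none of the 13 passed. For Pax6 the ratio was -2.40, -2.39 and -2.40 in MeHg and -2.34, -2.28 and -2.33 in Control, a difference of -0.07 ± 0.02 with the groups again apart. For Zic1, Zic2, Neurod1, Neurod2 and En2 the groups overlapped, with differences of -0.12 to 0.05. Etv1 and Pax6 have the longest gene models of the 7, and with the length offset the differences were 0.0011 for Etv1 and 0.058 for Pax6. With length and GC content they were 0.069 for Etv1 and 0.087 for Pax6, so the lower ratios of both genes were seen only without an offset.

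**Figure D2:**
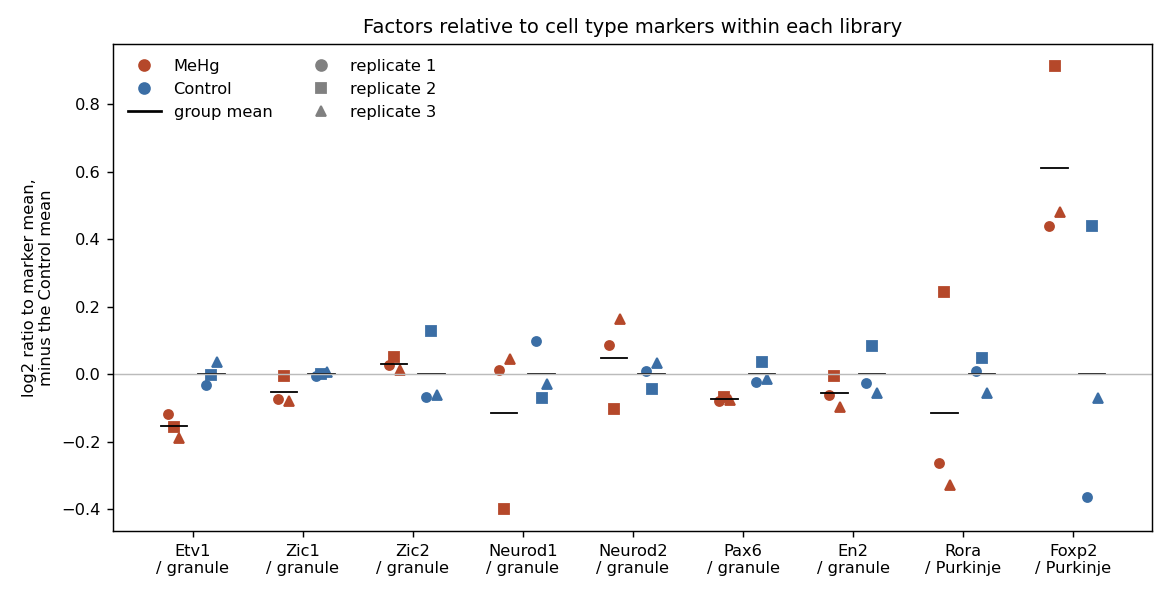
Log2 ratio of each factor to the mean log2 level of granule cell or Purkinje cell markers in the same library, minus the Control mean, with symbols for the replicate number and lines for group means. The MeHg and Control points are apart for Etv1 and Pax6 and overlap for the others except Foxp2, where MeHg replicate 1 is almost level with Control replicate 2.

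Rora encodes a nuclear receptor without which, in the staggerer mouse, Purkinje cells fail to mature. It was at 311, 319 and 283 CPM in MeHg, against 385, 368 and 381 CPM in Control. Unlike the factors of the granule lineage, it was highest among the MeHg libraries in replicate 2. Rora fell by 19.6% (log2 fold change -0.31 ± 0.07, adjusted p = 0.0495). Its gene spans chr9:68561068-69295528 on the plus strand (ENSMUSG00000032238), with 13071 bases of exon, and its fold change was closer to 0 with the offsets: -0.17 with the length offset (adjusted p = 0.141) and -0.12 with length and GC content (adjusted p = 0.236). The call also missed the threshold with DESeq2 size factors (adjusted p = 0.0501). Of 5 genes known as Rora targets in mouse Purkinje cells, Shh, Itpr1, Pcp2, Pcp4 and Slc1a6, none was called. Log2 fold changes were -0.36 ± 0.11 for the calcium release channel Itpr1 (adjusted p = 0.0916) and -0.17 ± 0.12 for the glutamate transporter Slc1a6. They were -0.10 ± 0.14 for the calmodulin-binding protein Pcp4, and positive for Pcp2 (0.06 ± 0.15) and Shh (0.03 ± 0.15). Itpr1, Pcp2 and Slc1a6 are also in a list of 8 Purkinje cell markers. The summed level of the 8 was 5555 to 7232 CPM in MeHg and 7251 to 8096 CPM in Control. Of the 8 Purkinje cell markers, 7 had negative log2 fold changes and none was called. Relative to these markers in the same library, the log2 ratio of Rora was -0.43, 0.08 and -0.49 in MeHg and -0.16, -0.12 and -0.22 in Control. MeHg replicate 2 lay above all Control libraries and the other MeHg libraries below them (two-sided exact permutation p = 0.5). The difference of -0.12 was -0.295 without MeHg replicate 2, -0.042 without MeHg replicate 1 and -0.0094 without MeHg replicate 3. It turned positive with the offsets, at 0.015 with the length offset and 0.058 with length and GC content.

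Foxp2, the forkhead factor of Purkinje cells that is also made in the inferior olive, thalamus and other regions, was the only one of the 10 with a positive fold change. It was at 18.5, 18.6 and 18.1 CPM in MeHg, against 10.9, 17.7 and 13.8 CPM in Control. The MeHg values were nearly equal to each other and just above Control replicate 2. The log2 fold change was 0.38 ± 0.17 (adjusted p = 0.198), 0.58 without Control replicate 2 (adjusted p = 0.0799), 0.23 without Control replicate 1 and 0.56 with the length offset. Without both libraries numbered 2 it was 0.59 and passed (adjusted p = 0.0385), in a fit that called 10.3% of all genes. Among the Control libraries it was highest in replicate 2, as was the summed level of the brainstem and midbrain markers, at 72.2 CPM against 31.5 and 44.6 CPM. Most of that Control sum was Slc17a6, at 19.2, 55.9 and 33.2 CPM in replicates 1 to 3, and Tph2 was at most 0.95 CPM. A link between Foxp2 and this sum was not tested. In the MeHg libraries the same sum was 64.8, 276 and 67.9 CPM while Foxp2 was nearly constant. The log2 ratio of Foxp2 to Rora was -4.07, -4.10 and -3.96 in MeHg and -5.14, -4.38 and -4.79 in Control. All MeHg ratios were higher, by 0.73 ± 0.22 (p = 0.1 by exact permutation), and the difference was also 0.73 with the length offset, the 2 genes being of similar length. Foxp2 lies at chr6:14901348-15441976 on the plus strand (ENSMUSG00000029563), with 16346 bases of exon, and its counts of 192 to 355 per library carry up to 7.22% counting error.

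Eomes, the T-box factor of unipolar brush cells, varied most. It was at 42.0, 9.75 and 26.7 CPM in MeHg, against 82.4, 17.9 and 79.8 CPM in Control. Replicate 2 was the lowest library of each group, and Control replicate 2 lay below MeHg replicates 1 and 3. The log2 fold change was -1.19 ± 0.58 (adjusted p = 0.245), and it ran from -0.79 without MeHg replicate 2 to -1.72 without MeHg replicate 1. Without both libraries numbered 2 it was -1.23 and passed (adjusted p = 0.00398), in that same fit. The 149 to 1625 counts per library allow a counting error of at most 8.19%, far below this spread. Of 5 further genes of unipolar brush cells, Plcb4 fell (-0.37 ± 0.07, adjusted p = 0.0431) and 4 did not pass. Their summed level was 1116 to 1262 CPM in MeHg and 1330 to 1540 CPM in Control, but Purkinje cells also make Plcb4 and other genes of this list. Calb2, on this list, is also on the granule marker list. Eomes lies at chr9:118307280-118315200 on the plus strand (ENSMUSG00000032446), and opposite-strand non-coding genes share up to 430 of its exon bases.

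**Figure D3:**
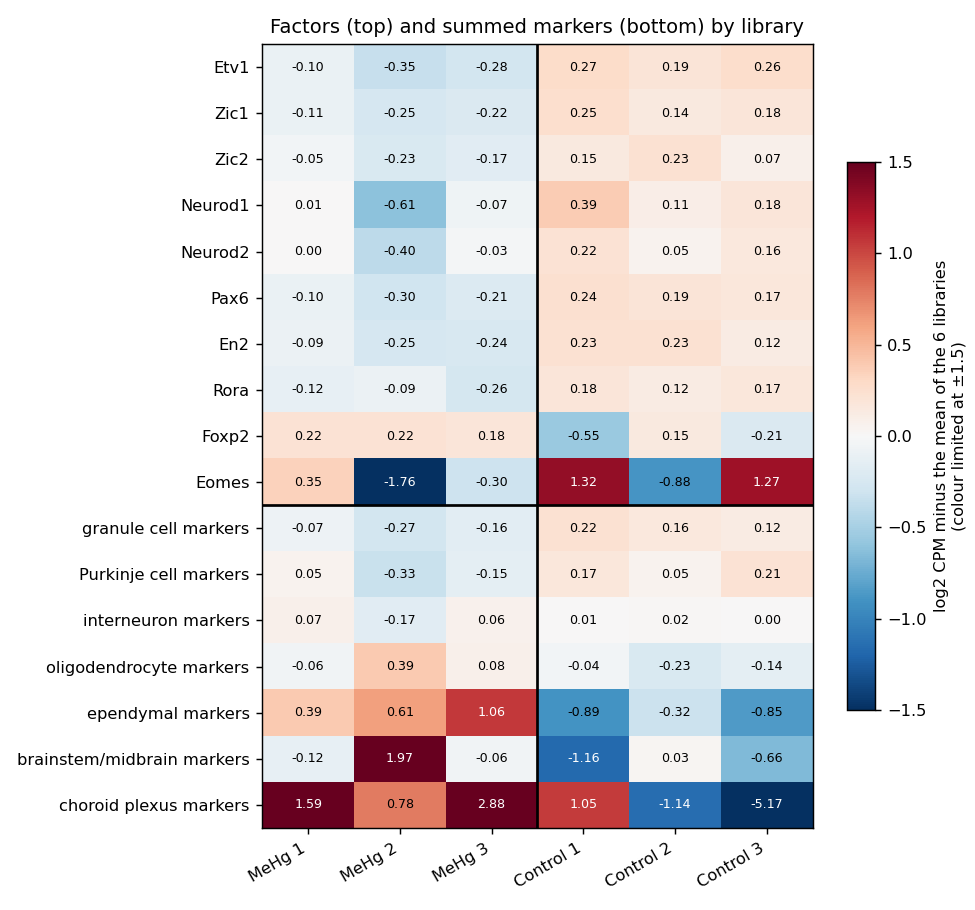
Log2 CPM of each factor and log2 summed CPM of each marker list, minus the mean of the 6 libraries, by library. Eomes is at -1.76 in MeHg replicate 2 and -0.88 in Control replicate 2, Neurod1 at -0.61 in MeHg replicate 2, and the brainstem and midbrain markers at 1.97 in MeHg replicate 2.

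Across libraries the 10 factors did not all follow the same order. MeHg replicate 2 was the lowest MeHg library for 8 of them, the exceptions being Rora and Foxp2, and MeHg replicate 1 was the highest for the same 8. Control replicate 1 was the highest Control library for 8, the exceptions being Zic2 and Foxp2. Genes with a mean of at least 10 CPM were searched, leaving out Gm and Rik symbols and bare Ensembl identifiers. Among them, the tested genes closest to each called factor were found by the root mean square difference of centred log2 CPM over the 6 libraries. For Etv1 they were Boc (0.03), St8sia5 (0.04) and Fat2 (0.04), against a spread of Etv1 itself of 0.26. For Zic1 they were Gas1, Tiam1 and N4bp2l2 (0.02, 0.02 and 0.03), for Pax6 they were N4bp2l2, Zic1 and Diras2 (0.03 each), for En2 Gas7, Chn2 and Mctp1 (0.03 each), and for Rora Prkcb, Dlgap1 and Usp47 (0.02 each). Zic1 was thus 1 of the 3 genes nearest to Pax6, and none of the other factors was among the 3 nearest to a called one.

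Levels between genes were compared in the authors' FPKM, which divides by gene length. In MeHg the order ran from Zic1 (144 ± 8.25 FPKM, SD, n = 3) through Neurod1 (114 ± 25.6), Zic2 (86.6 ± 6.18), Neurod2 (43.5 ± 6.66), En2 (42.4 ± 2.72), Etv1 (23.2 ± 2.19), Rora (21.7 ± 1.22), Pax6 (6.78 ± 0.51) and Eomes (5.89 ± 3.65) to Foxp2 (1.05 ± 0.01). In Control it ran from Zic1 (189 ± 7.48) through Neurod1 (154 ± 16.2), Zic2 (107 ± 5.67), En2 (55.6 ± 2.34), Neurod2 (52.9 ± 3.20), Etv1 (32.5 ± 1.07), Rora (27.2 ± 0.69), Eomes (13.6 ± 8.28) and Pax6 (9.02 ± 0.25) to Foxp2 (0.81 ± 0.19). En2 with Neurod2 and Eomes with Pax6 overlapped in both groups, so their changed places are within the spread. In MeHg, Neurod1 with Zic2 and Etv1 with Rora overlapped too, whereas in Control these pairs were apart.

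Other transcription factors of cerebellar neurons were taken from a list of 48, of which 42 were tested. Of these, 2 fell and 0 rose, at 26 negative and 16 positive log2 fold changes with a median of -0.07. In the granule lineage (14 tested), Meis1, a homeobox factor, fell (41.3, 39.1 and 35.7 CPM in MeHg against 53.9, 49.4 and 51.5 CPM in Control, -0.41 ± 0.08, adjusted p = 0.0440). Barhl2 had -0.36 ± 0.10 (adjusted p = 0.0766). Meis2, at 43.8 CPM in MeHg replicate 2 and 5.43 to 18.7 CPM elsewhere, had 1.36 ± 0.42 (adjusted p = 0.103). In the Purkinje lineage (10 tested), Ebf1 fell (-0.41 ± 0.09, adjusted p = 0.0495). Lhx1, which acts with Lhx5 in Purkinje cell differentiation, had -0.34 ± 0.08 (adjusted p = 0.0527) and Lhx5 had 0.19 ± 0.11. Of the relatives of the 10 factors (6 tested), none passed. Etv5, an ETS-family relative of Etv1, had -0.34 ± 0.18.

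Factors of interneurons and of cerebellar nuclei did not pass. Among 6 tested interneuron factors, Tfap2b had -0.21 ± 0.08 and Gata2 had 1.20 ± 0.27 (adjusted p = 0.0545), at 5.01, 7.98 and 3.98 CPM in MeHg against 2.43 to 2.52 CPM in Control. The level of Gata3 was 6.80 CPM in MeHg replicate 2, and the other 5 libraries had at most 0.87 CPM (2.66 ± 0.91, adjusted p = 0.125). Among 6 tested factors of nuclei and unipolar brush cells, Lmx1b was likewise highest in MeHg replicate 2, at 4.19 CPM against 0.66 to 1.82 CPM elsewhere. These were low counts in the library with the highest brainstem and midbrain markers, whose part in them was not tested. Lhx9 was at 10.6, 13.1 and 11.6 CPM in MeHg and 1.47, 9.28 and 3.74 CPM in Control (1.28 ± 0.49, adjusted p = 0.159).

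**Figure D4:**
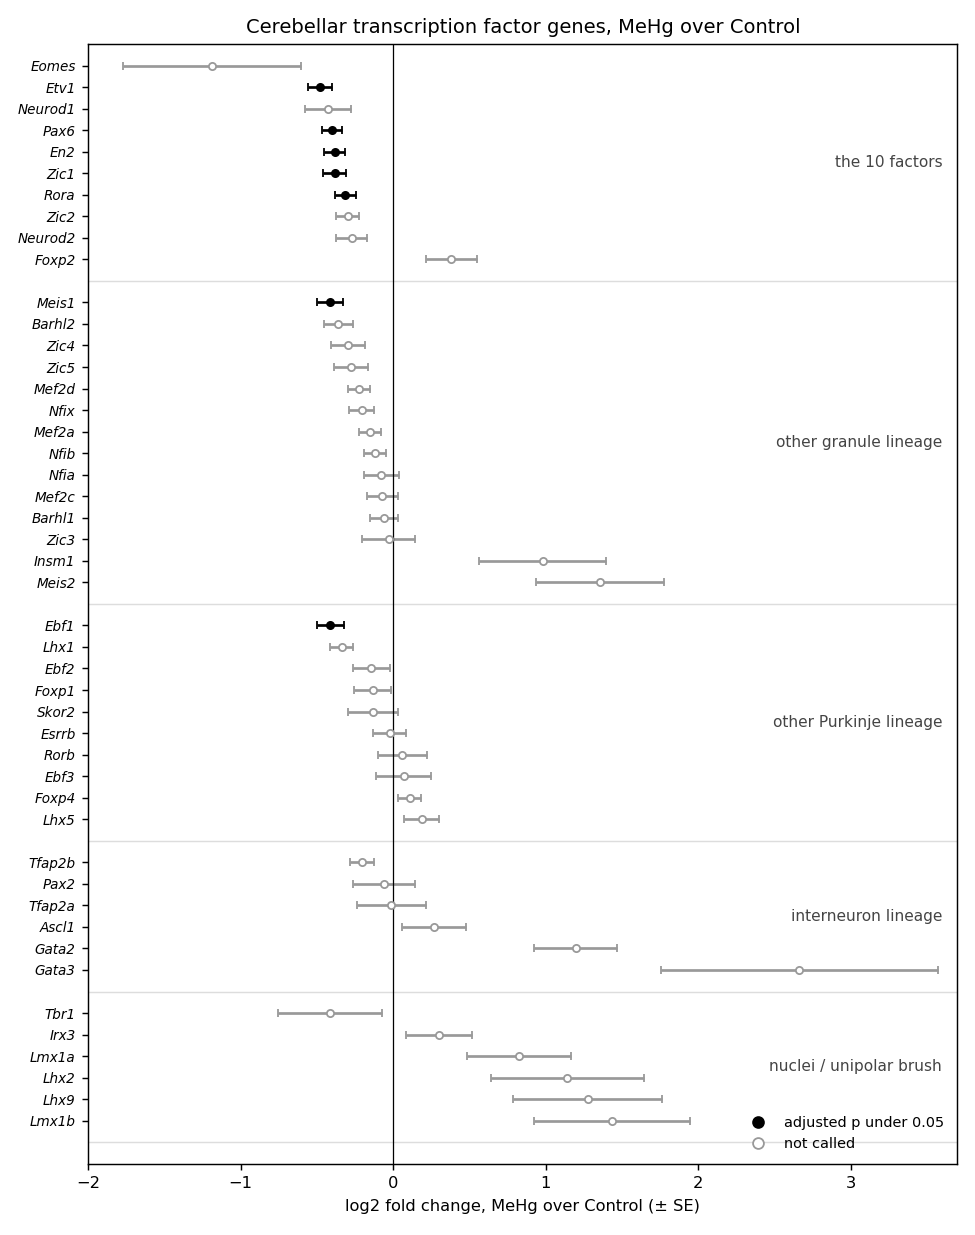
Log2 fold change of MeHg over Control with its SE for the 10 factors and 36 further transcription factors, by lineage, without the family relatives. Filled points mark the 7 genes called, which all lie between -0.48 and -0.31.

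The fold changes of the 10 factors under every processing choice are shown together in the plot of processing choices. Under the DESeq2 test, 7 of the 10 were called, Zic2 and Neurod1 in addition to the 5, where 8.27% of all genes were called. Without a filter on low counts 9 were called, all but Foxp2, where 7.38% of all genes were. That fit called Eomes although its groups overlapped, with an SE of 0.16 against 0.58 in the reported fit at the same fold change of -1.19. The SE of Neurod1 was 0.09 there, against 0.15, so these calls do not reflect the spread between replicates seen in the reported fit. Upper-quartile scaling left Etv1, Pax6 and En2 called, where 1.17% of all genes were. Under limma on log2 FPKM, 0 were called. In those 2 fits 8 had an unadjusted p under 0.05, as did 3874 and 3887 of the 16859 tested genes.

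**Figure D5:**
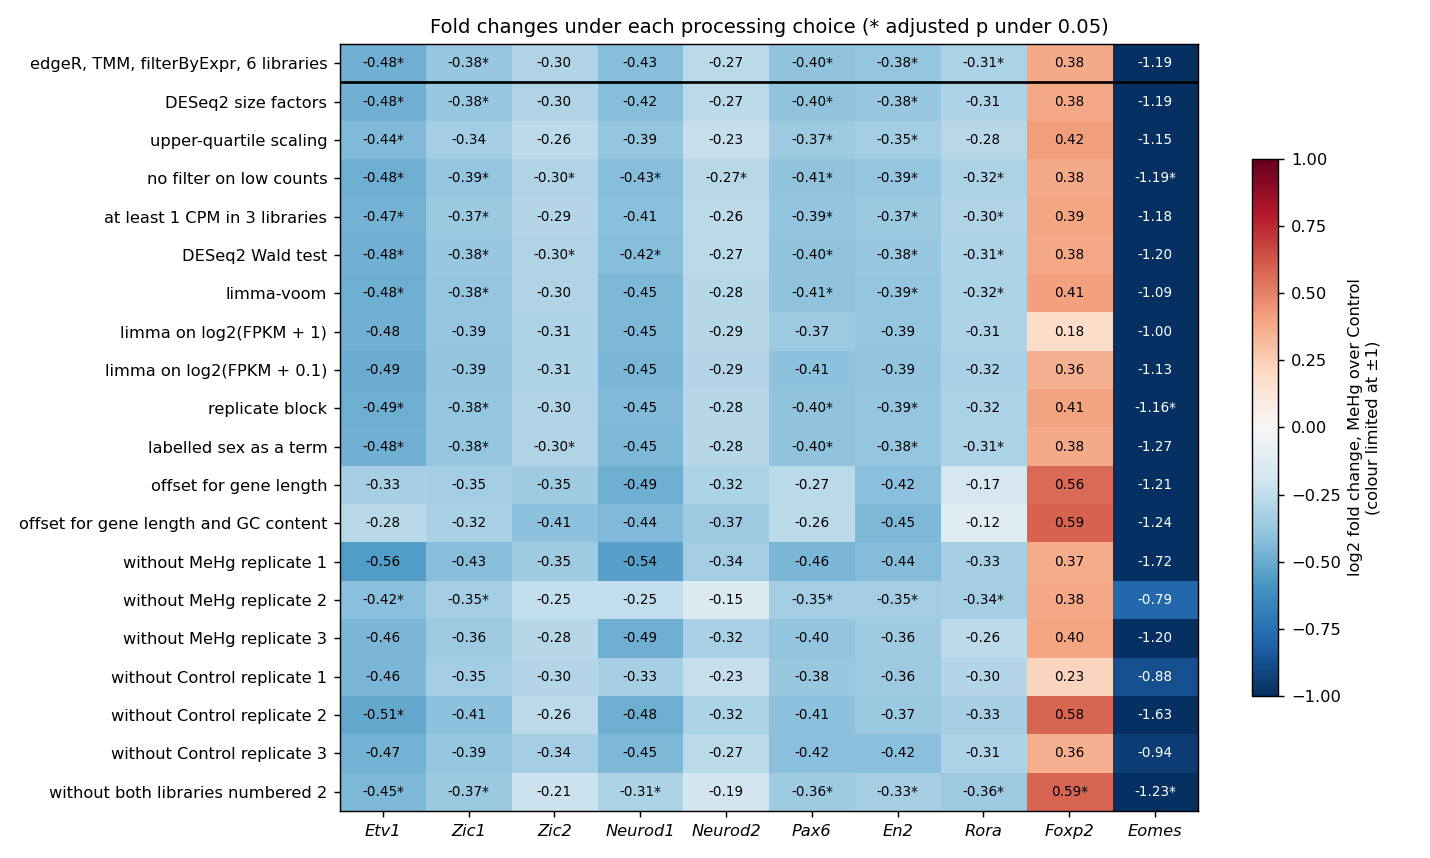
Log2 fold change of MeHg over Control for each factor (columns) under the reported fit and 19 other fits (rows), with an asterisk for an adjusted p under 0.05. Signs never change, while Rora ranges from -0.36 to -0.12 and Foxp2 from 0.18 to 0.59.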

How the data were processed

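RNA of 6 cerebella was sequenced as paired 150-base reads (Illumina NovaSeq), per the labels. The submitters' processing notes name mm39 and DESeq2. For the aligner, the counter and the strand setting, the sources used here give nothing. The authors deposited raw counts per gene. The authors also deposited FPKM values, and 2 columns of group means in that table were not used. The FPKM values follow the counts divided by gene length and by a library size that was not the total count. How that size was taken is not given in the sources used here. Gene lengths and coordinates are those of the deposited table. Overlaps come from GENCODE vM39, which holds 98.7% of its identifiers.

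The 10 genes, the marker lists and the tests were chosen with earlier results of these data known. Genes were kept by edgeR's filterByExpr (16859), libraries scaled by TMM, and MeHg compared with Control with glmQLFit and glmQLFTest (edgeR 4.0.16, R 4.3.3). Group was the only term, with Benjamini-Hochberg adjustment over all tested genes. The SE is the absolute log2 fold change divided by the square root of F. Ratios within libraries were compared by exact permutation (scipy 1.17.1). Named are all 10 factors, called genes and up to 3 genes of smallest p in each list, and 3 nearest genes per called factor. Some list genes that this rule names are given only within the counts and sums of their list or are not reported here. Alternatives used DESeq2 1.42.0, limma 3.58.1 with voom, limma on log2(FPKM + 1) or log2(FPKM + 0.1), other scalings and filters, terms for replicate number or labelled sex, and lowess offsets (span 0.3) for length and GC content of the longest transcript. The edgeR procedure was run on simulated data, where the smallest planted log2 change was larger than that of any called factor. That run therefore does not bear on the calls of the factors. No 2 libraries of a group were copies (chi-square per degree of freedom 7.77 to 19.7).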

Additional observations from a re-analysis of the deposited data

How the results depend on the processing

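The signs of the 10 fold changes held in all 19 other fits, but the calls did not. Against 398 genes and 5 of the 10 factors called, upper-quartile scaling called 197 and 3 (78 genes higher and 119 lower, against 97 and 301), no filter on low counts 2378 and 9, the DESeq2 test 1394 genes, labelled sex as a term 609 genes, and a threshold of 0.1 called 1653 genes. Limma on log2(FPKM + 1) and log2(FPKM + 0.1), and edgeR with an offset for gene length or for gene length and GC content, each called 0 genes and 0 factors, with 3874, 3887, 3583 and 3533 genes at an unadjusted p under 0.05. Leaving out 1 library gave 0 to 1091 genes and 0 to 5 factors, and leaving out both libraries numbered 2 gave 1723 genes and 8 factors. The cause of these shifts was not tested. The sex term followed the labels, with Control replicate 2 as female against its Xist and Ddx3y levels, so it does not adjust for sex as seen in RNA. Replicate numbers matched the samples only in part: the correlations of same-numbered deviations were 0.19, 0.35 and -0.24. MeHg replicates 1 and 2 each correlated best with the Control library of the same number, but MeHg replicate 3 with Control replicate 1 (0.36). No label states a pairing. With the replicate number as a block 648 genes and 5 factors were called, with Eomes (-1.16) in and Rora (-0.32) out.

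Among the ratios, leaving out 1 library moved no difference by more than 1 SD of the replicates, but small differences changed by over 1.5 times or turned sign. The difference ran from 0.049 to 0.147 for Zic2 to Zic1 and from -0.18 to 0.057 for Etv1 to Neurod1. Against granule markers it ran from -0.195 to 0.028 for Neurod1, -0.0089 to 0.124 for Neurod2, -0.0031 to 0.094 for Zic2 and -0.082 to -0.014 for En2. Signs turned without MeHg replicate 1 or 3 (Etv1 to Neurod1), MeHg replicate 2 (Neurod1), MeHg replicate 3 (Neurod2) and Control replicate 1 or 3 (Zic2). For Etv1 and Pax6 against granule markers and for Foxp2 to Rora no library moved it by over 1.5 times. With the length offset, and then with length and GC content, both chosen after seeing the data, the difference was -0.0039 and -0.087 for Zic2 to Zic1, 0.16 and 0.16 for Etv1 to Neurod1, 0.0011 and 0.069 for Etv1 to granule markers, -0.018 and 0.028 for Zic1 to granule markers, and 0.058 and 0.087 for Pax6 to granule markers. It was -0.059 with both for Zic2 to granule markers. For Rora to Purkinje cell markers it was 0.015 with the length offset and 0.058 with both. When 1 library was left out, Pcp4 ran from -0.21 to 0.074 and Egr4 from -0.73 to 0.083, and both were positive only when MeHg replicate 2 was the one. Leaving out both libraries numbered 2 gave 0.090 for Pcp4.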

Other observations

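Eomes had groups that overlapped, and Foxp2 was the only factor with a positive fold change. The genes nearest to Eomes and Foxp2 were looked up after the values of these factors were seen. Among tested genes with a mean of at least 10 CPM, with the same symbols left out, the nearest to Eomes were Nr4a3, Egr4 and Fosl2. Their root mean square differences were 0.52 to 0.54 on the log2 scale, against a spread of Eomes itself of 1.11. All 3 are transcription factor genes that neuronal activity or growth signals induce, and none was called (log2 fold changes of -0.64 ± 0.72, -0.33 ± 0.48 and -0.82 ± 0.58). Nearest to Foxp2 were Kcnab3, Haghl and Gar1 (0.07 to 0.08, against a spread of 0.29), with log2 fold changes of 0.35 to 0.40, none called.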
